A study of Mus musculus with 6 samples.

Results

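Glutathione peroxidases and glutathione reductase form the glutathione arm of peroxide removal, and 6 of their genes were followed here in mouse embryonic fibroblasts with a mutated mitochondrial superoxide dismutase. The 6 genes were chosen by symbol: Gpx1, Gpx3, Gpx4, Gpx7, Gpx8 and Gsr, out of 50763 genes in the count table. Transcripts were measured by RNA sequencing of polyadenylated RNA in 6 libraries. The 3 K68R libraries came from embryos with a CRISPR knock-in of Sod2 that replaces a lysine of the enzyme with arginine, on a C57BL/6 background. The 3 WT libraries came from wild-type embryos of the same background. Both genotypes carry the strain label C57BL/6J, both were isolated at E13.5 (midgestation), and both were cultured briefly before RNA was extracted. The labels name neither the number of knock-in lines nor the embryos behind each library, so the p-values reflect no more than the scatter among these 6 libraries, some or all of which may be technical.

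Glutathione peroxidases use the thiol of glutathione to reduce hydrogen peroxide and lipid hydroperoxides, and glutathione reductase, the product of Gsr, uses NADPH to turn the oxidized glutathione disulfide back into glutathione. SOD2 makes hydrogen peroxide from superoxide in the mitochondrial matrix, so these enzymes act downstream of its product. GPX1 works in the cytosol and mitochondria, GPX4 reduces phospholipid hydroperoxides in membranes, and GPX3 is secreted. GPX7 and GPX8 reside in the endoplasmic reticulum, where they take part in oxidative protein folding and draw mainly on protein disulfide isomerases rather than on glutathione.

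The active-site codon separates the peroxidases into a selenocysteine and a cysteine group, and the 30 bases around it are shown because the results below are ordered by it. The windows are the coding strand, 5′ to 3′, from GENCODE M21 on build GRCm38, and the capitals mark the active-site codon, or in Gsr the 2 cysteine codons of its redox-active disulfide.
Gpx1: aatgtcgcgtctctcTGAggcaccacgatc
Gpx4: aacgtggcctcgcaaTGAggcaaaactgac
Gpx3: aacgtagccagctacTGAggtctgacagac
Gpx7: aacgtagctagcgaaTGTggcttcacagac
Gpx8: aacgtggctagtgacTGCcgcttcacagac
Gsr: ggcactTGCgtgaatgttggaTGTgtaccc

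Gpx1, Gpx4 and Gpx3 had TGA, which the annotation marks as read through as selenocysteine, while Gpx7 and Gpx8 had the cysteine codons TGT and TGC. Outside the codon, the windows of Gpx7 and Gpx8 shared the most bases, 23 of 27, and those of Gpx1 and Gpx3 the fewest, 12 of 27. The shared bases did not follow the codon groups: Gpx3 shared 21 with Gpx7 and 19 with Gpx8, but 16 with Gpx4. On GRCm38 the windows lie on the + strand at chr9:108339436-108339465 for Gpx1 (codon 47 of the longest annotated reading frame), chr10:80054722-80054751 for Gpx4 (codon 129) and chr11:54907241-54907270 for Gpx3 (codon 73). Those of Gpx7 and Gpx8 lie on the - strand at chr4:108403418-108403447 (codon 56) and chr13:113045649-113045678 (codon 79). The Gsr window runs across an exon junction, from its first base to its last at chr8:33653771-33669173 on the + strand, and starts its capitals at codon 80. No read of these libraries was examined at these positions.

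The deposited counts summed to between 26200088 and 31738219 read pairs in K68R and between 30856781 and 40691447 in WT. Of 16730 genes with enough counts to be tested, edgeR's quasi-likelihood test with Benjamini-Hochberg adjustment called 13613 at an adjusted p under 0.05, which is 81.4% of them, and 82.3% had no overlap of values between genotypes. A call was therefore the usual outcome for a gene in these libraries, and the size of a change carries more than the call. Fold changes also followed exon length and GC content across the genome: a smooth surface of both explained 39.2% of their variance over 15589 genes. Values with length and GC offsets, taken from a smooth surface of both fitted to each library, are given beside each gene for this reason. Levels are in CPM, which is the count divided by the TMM-normalized library total and brought to one scale. Sod2 itself averaged 47.2 ± 1.62 CPM in K68R against 70.0 ± 1.58 CPM in WT (SD, n = 3 each), a log2 fold change of -0.57 (edgeR adjusted p = 2.96e-23). With length and GC offsets it was -0.19, with offsets for length alone -0.85, and against the 1.5-fold bound it was not called (edgeR adjusted p = 0.692). Gene counts do not show the changed codon, so they do not check the genotype labels.

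All 6 genes passed the filter on low counts, and all were called. Gpx1, Gpx4, Gpx7, Gpx8 and Gsr fell in K68R and Gpx3 rose, against 40.5% of all genes tested called lower and 40.8% called higher. The median log2 fold change of the 6 was -0.59, beside -0.01 over all genes tested. With offsets the medians were -0.41 and -0.03. Gsr and the peroxidases of the endoplasmic reticulum had the largest changes without offsets, 1.73-fold to 2.02-fold lower, and those of Gpx1, Gpx4 and Gpx3 were at most 1.30-fold. With length and GC offsets this order did not hold: Gpx4 was 1.68-fold, Gsr 1.65-fold, Gpx7 1.59-fold and Gpx8 1.12-fold lower, and Gpx3 1.28-fold and Gpx1 1.07-fold higher. Against a bound of 1.5-fold, which 14.9% of the genes tested passed in the lower direction and 26.1% in the higher, the genes that passed were Gpx7, Gpx8 and Gsr, all lower; 41% of all genes passed it in either direction. In bulk RNA, fewer cells that express a gene and less of its RNA per cell cannot be told apart.

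**Figure D1:**
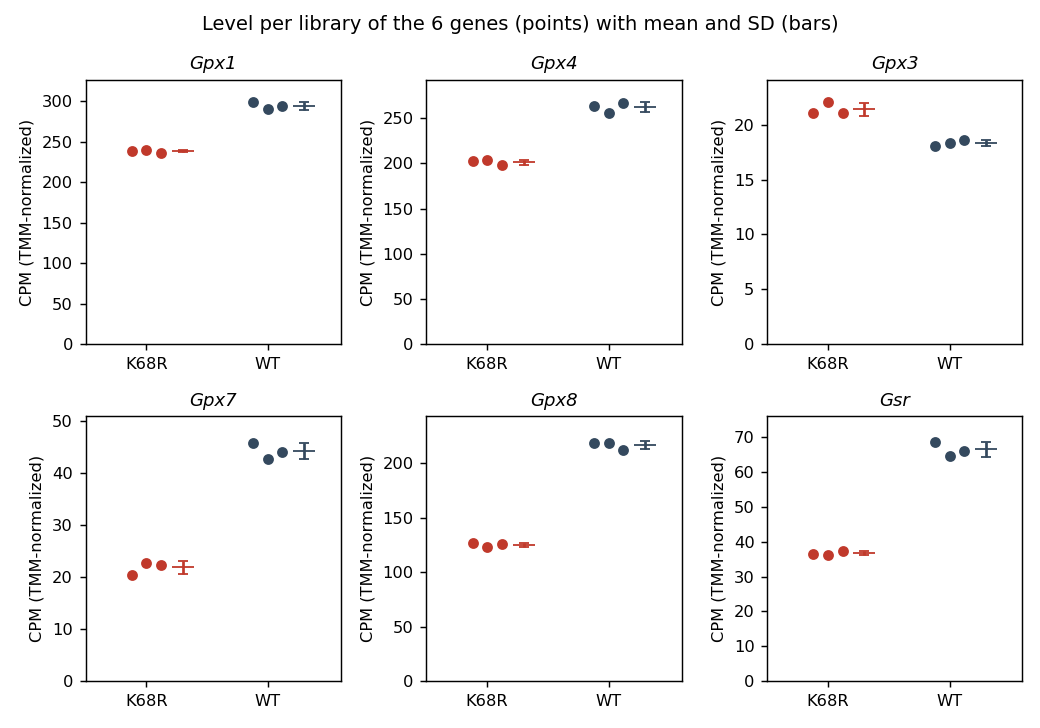
Level of each gene per library in CPM (read pair counts scaled to TMM-normalized library size), with K68R libraries left of WT libraries; points are libraries, and bars are the mean ± SD of 3. K68R lies below WT for Gpx1, Gpx4, Gpx7, Gpx8 and Gsr and above it for Gpx3, with no overlap in any panel. Of all genes tested, 82.3% had no overlap between genotypes.

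Gpx1, the most abundant of the 6 per length of exon, had 239, 239.8 and 237 CPM in K68R libraries, against 299, 290.1 and 294 CPM in WT libraries. All K68R libraries lay below all WT libraries, with a far narrower spread within a genotype than between them. The mean was 239 ± 1.55 CPM in K68R libraries and 295 ± 4.65 CPM in WT (SD, n = 3 each), a log2 fold change of -0.30 ± 0.0213 (SE, edgeR adjusted p = 3.30e-21), or 1.24-fold lower. Per kilobase of exon this was 228 CPM in K68R and 282 CPM in WT, and 98.6% of the genes tested had a lower level on that scale. The direction did not hold with length and GC offsets, where the log2 fold change was 0.10 (edgeR adjusted p = 4.17e-05), nor with offsets for length alone, where it was 0.09. Gpx1 lies on chromosome 9 (mm39 chr9:108216279-108217541, + strand) in 2 exon blocks of 1045 bases in all, and its longest transcript has 57.2% GC.

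Gpx4, the phospholipid hydroperoxidase that protects cells from ferroptosis, had 202, 203 and 198 CPM in K68R libraries, against 263, 256 and 266.5 CPM in WT libraries. Again no K68R library reached the lowest WT library. Its mean was 201 ± 2.64 CPM in K68R libraries and 262 ± 5.30 CPM in WT (SD, n = 3 each), a log2 fold change of -0.38 ± 0.0223 (SE, edgeR adjusted p = 3.27e-25), or 1.30-fold lower. It was lower under every alternative tried, but by sizes from -0.75 with length and GC offsets to -0.12 with offsets for length alone. Gpx4 lies at mm39 chr10:79883000-79892273 on the + strand, with 1465 exonic bases in 10 blocks and 60.2% GC.

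A processed copy of Gpx4 on the same chromosome, Gpx4-ps2 (mm39 chr10:45751386-45752162, + strand, 777 bases in 1 exon), took reads in every library. Its counts were 24.7%, 23.8% and 24.9% of the Gpx4 counts in K68R and 25.2%, 25.2% and 25% in WT. Reads that map to both copies were not counted, so the counts of both are uncertain. Adding the counts of Gpx4-ps2 to those of Gpx4 gave a log2 fold change of -0.39, and Gpx4-ps2 on its own had -0.42 (edgeR adjusted p = 2.43e-17). With length and GC offsets the pair moved apart, to -0.75 for Gpx4 and 0.08 for Gpx4-ps2 (54.6% GC; edgeR adjusted p = 0.0347), although their unadjusted changes were close.

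Gpx3, which encodes the secreted peroxidase of plasma, was the exception in direction. It had 21.1, 22.1 and 21.0 CPM in K68R libraries, against 18.02, 18.3 and 18.6 CPM in WT libraries, with every K68R library above every WT library. The means were 21.4 ± 0.602 CPM in K68R libraries and 18.3 ± 0.297 CPM in WT (SD, n = 3 each), which edgeR called at an adjusted p of 3.55e-04 with a log2 fold change of 0.23 ± 0.0585 (SE), 1.17-fold higher. With length and GC offsets the difference was 0.35 (edgeR adjusted p = 2.12e-07). With upper quartile normalization it was 0.11 and was not called (edgeR adjusted p = 0.0701), and that scaling also shifted the median of all genes to -0.12. Gpx3 lies at mm39 chr11:54793680-54801213 on the + strand (1618 exonic bases in 6 blocks, 56.0% GC), and 71.8% of the genes tested had a lower level per kilobase.

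Gpx7, an endoplasmic reticulum peroxidase with cysteine in its active site, showed the largest change of the 6 without offsets; with length and GC offsets Gpx4 (-0.75) and Gsr (-0.72) exceeded it, and with length only offsets Gsr (-0.91) did. Its K68R libraries had 20.4, 22.8 and 22.3 CPM, against 45.8, 42.7 and 44.0 CPM in WT libraries. No K68R library came near the lowest WT library. Mean levels of 21.8 ± 1.23 CPM in K68R libraries and 44.2 ± 1.56 CPM in WT (SD, n = 3 each) gave a log2 fold change of -1.02 ± 0.0480 (SE, edgeR adjusted p = 3.48e-30), 2.02-fold lower. Of all genes tested, 7.57% were called at 2-fold lower or more and 22.1% at 2-fold higher or more, without offsets. The change was -0.67 with length and GC offsets (edgeR adjusted p = 1.47e-19). Gpx7 lies at mm39 chr4:108257414-108263910 on the - strand, with 1214 exonic bases in 3 blocks and 55.5% GC. Of these bases 66, or 5.44%, are shared with Gm32297 on the opposite strand, which cannot be separated by counting without strand. Gm32297 had 8 to 11 counts in K68R and 13 to 22 in WT, against 527 to 710 and 1335 to 1888 for Gpx7.

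Gpx8, the membrane-anchored peroxidase of the endoplasmic reticulum, had 127, 123 and 125 CPM in K68R libraries, against 219, 219 and 212 CPM in WT libraries. K68R libraries stayed within a narrow band well below WT. The mean was 125 ± 1.94 CPM in K68R libraries and 217 ± 3.67 CPM in WT (SD, n = 3 each), a log2 fold change of -0.79 ± 0.0242 (SE, edgeR adjusted p = 3.54e-41), 1.73-fold lower. Much of this size went with length and GC offsets, which left -0.16 (edgeR adjusted p = 8.20e-09), and a test among genes under 4000 exonic bases and under 50% GC gave -0.36. Gpx8 is short and low in GC, with 1048 exonic bases in 3 blocks and 44.3% GC. It lies at mm39 chr13:113179287-113182944 on the - strand, within the span of Cdc20b but sharing no exonic base with it.

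Gsr, whose product regenerates reduced glutathione, had 36.4, 36.2 and 37.3 CPM in K68R libraries, against 68.7, 64.6 and 66.2 CPM in WT libraries. The WT libraries were all well above the highest K68R library. Gsr averaged 36.6 ± 0.591 CPM in K68R libraries and 66.5 ± 2.07 CPM in WT (SD, n = 3 each), a log2 fold change of -0.86 ± 0.0384 (SE, edgeR adjusted p = 1.22e-31), 1.82-fold lower. The value moved little with length and GC offsets, to -0.72 (edgeR adjusted p = 3.36e-26). Of all genes tested, 10.5% had a lower log2 fold change than Gsr, compared with 7.36% for Gpx7 and 12.8% for Gpx8. Gsr lies at mm39 chr8:34143266-34188190 on the + strand, with 2672 exonic bases in 13 blocks and 50.1% GC.

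The remaining family members in the table were not expressed at a level that could be tested. Gpx2, the gastrointestinal form, had no count in K68R and at most 2 in a WT library. Gpx5 and Gpx6, whose products are known from epididymis and olfactory tissue, each had 1 count in a K68R library and none in WT. Counts of 3 in a library correspond to between 0.0728 and 0.116 CPM, and these genes were at or below that floor in both genotypes, so no fold is given.

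**Figure D2:**
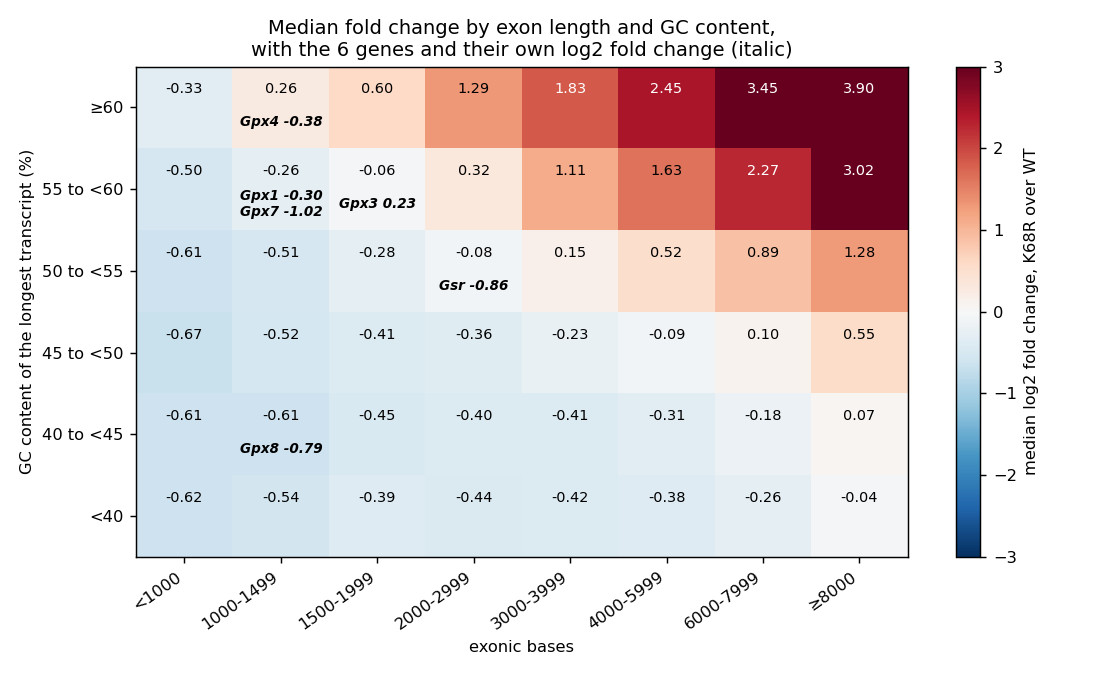
Median log2 fold change, K68R over WT, of all tested genes in classes of exonic bases (x axis) and GC content of the longest transcript in percent (y axis), with the 6 genes written in italics in their own class beside their own log2 fold change. Class medians run from -0.67 among short genes to 3.90 among long GC-rich genes; Gpx1 at -0.30 sits near its class median of -0.26, Gpx8 at -0.79 just above the lower quartile of its class (-0.82), and Gpx7, Gsr and Gpx4 below the lower quartiles of theirs.

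Genes of like length and GC content place the 6 values. Gpx7 and Gpx1 share a class of 288 genes with a median log2 fold change of -0.26 and quartiles of -0.54 and 0.24. Gpx1 at -0.30 lay between those quartiles and Gpx7 at -1.02 lay below them. Gsr at -0.86 lay below the lower quartile of -0.48 of its 663 genes, whose median was -0.08. Gpx4 at -0.38 also lay below the lower quartile of its class, -0.28 over 70 genes with a median of 0.26, though its GC content of 60.2% is just inside the class edge at 60%. Gpx8 at -0.79 was just above the lower quartile of its 171 genes, whose quartiles were -0.82 and -0.26 around a median of -0.61. Gpx3 at 0.23 was likewise between those of its 306 genes, -0.45 and 0.53.

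**Figure D3:**
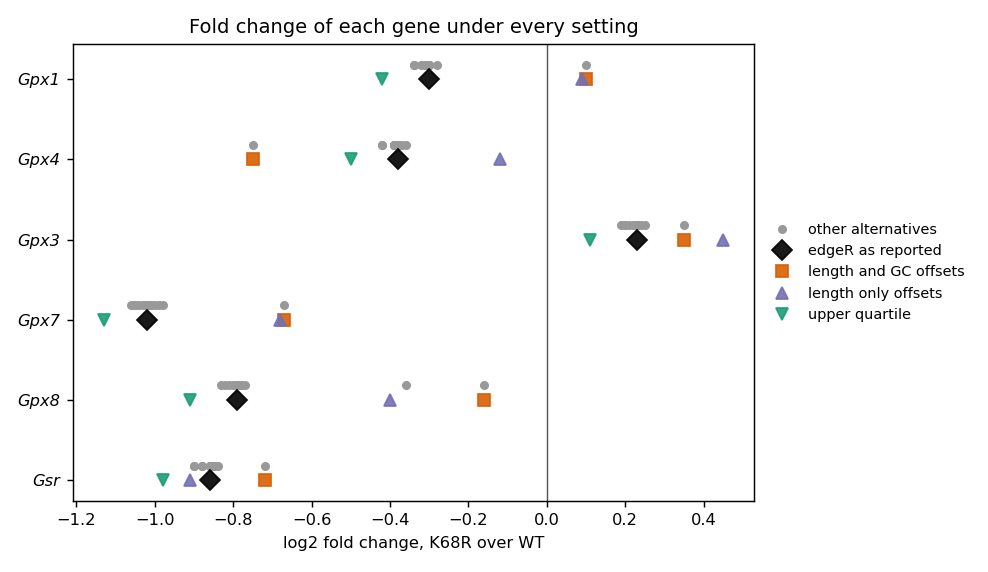
Log2 fold change, K68R over WT (x axis), of each gene (rows) under the reported test and every alternative; the diamond is the reported value, squares and triangles are the offsets and upper quartile normalization, and grey points are the others. Gpx7 stays between -1.13 and -0.67, Gsr between -0.98 and -0.72 and Gpx3 between 0.11 and 0.45, and Gpx1 crosses zero.

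Over all alternatives the log2 fold change ran from -1.13 to -0.67 for Gpx7, from -0.98 to -0.72 for Gsr and from -0.91 to -0.16 for Gpx8. The ranges were -0.75 to -0.12 for Gpx4, 0.11 to 0.45 for Gpx3 and -0.42 to 0.10 for Gpx1. Gpx7, Gpx8 and Gsr were called lower in each alternative that tested them. With length and GC offsets 4 of the 6 genes were called lower and 2 higher, against 40% and 35.5% of the 15589 genes tested there (75.5% in all). With offsets for length alone the counts were again 4 and 2, against 47% and 33.3% of all genes (80.2% in all).

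**Figure D4:**
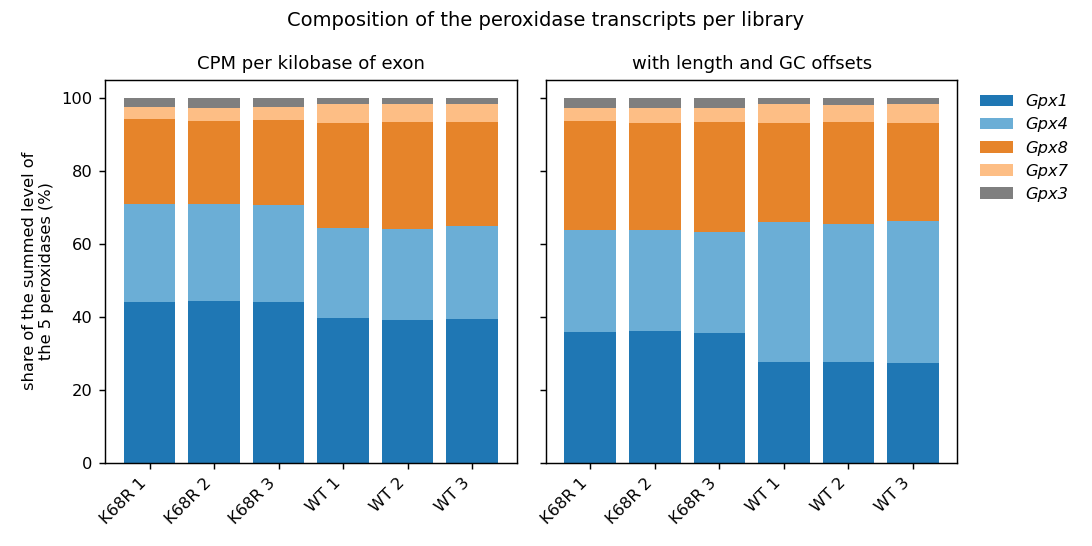
Share of each peroxidase in the summed level of the 5 (y axis, percent) in each library, K68R libraries left of WT, on CPM per kilobase of exon (left panel) and on levels with length and GC offsets (right panel). The offsets change the weight of each gene in the sum, so the panels are not on one scale. On CPM per kilobase Gpx1 holds 44.2% to 44.3% in K68R and 39.2% to 39.6% in WT, and Gpx8 22.7% to 23.4% in K68R and 28.4% to 29.5% in WT.

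Summed over the 5 peroxidases, CPM per kilobase of exon came to 518, 518 and 513 in K68R libraries and to 724, 708 and 714 in WT libraries, with no overlap. The sum was 1.39-fold lower in K68R, at 516 ± 2.93 against 715 ± 8.41 in WT (SD, n = 3 each). With length and GC offsets, which also change the weight of each gene in the sum, it was 1.22-fold lower. A two-sided exact permutation test gave p = 0.1 for each, the smallest that 3 libraries against 3 allow.

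The mixture of the peroxidase transcripts was described by the share of each in that sum. Gpx1 made up 44.2%, 44.3% and 44.2% of the sum in K68R libraries and 39.6%, 39.2% and 39.4% in WT libraries. Gpx8 made up 23.4%, 22.7% and 23.3% in K68R libraries and 28.9%, 29.5% and 28.4% in WT libraries. The share of Gpx1 was higher by 4.8 points in K68R and the K68R minus WT difference for Gpx8 was -5.76 points, with libraries of the same genotype close together.

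Gpx4 held 26.4% to 26.8% in K68R and 24.7% to 25.5% in WT, and Gpx3 held 2.52% to 2.64% in K68R and 1.54% to 1.61% in WT. Gpx7 held 3.25% to 3.62% in K68R and 4.97% to 5.21% in WT. None of the 5 shares overlapped between genotypes, and each had an exact permutation p of 0.1, also after Benjamini-Hochberg adjustment over the 5 shares, which the design cannot take lower. The shares of Gpx1, Gpx3 and Gpx7 kept their direction with offsets (8.31, 0.984 and -1.16 points), and those of Gpx4 and Gpx8 changed sign, to -10.6 and 2.42 points.

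Ratios within a library do not depend on library size. The log2 ratio of Gpx7 to Gpx8 was -2.85, -2.65 and -2.71 in K68R libraries and -2.47, -2.57 and -2.48 in WT libraries, so within the endoplasmic reticulum pair Gpx7 was the more reduced, by -0.23 on average (-0.51 with offsets). The log2 ratio of Gsr to the summed peroxidases was -5.25, -5.26 and -5.20 in K68R libraries and -4.82, -4.87 and -4.85 in WT libraries, a difference of -0.39 (-0.43 with offsets). Gsr transcripts were thus lower in K68R also relative to the sum of the 5 peroxidases. Gpx1 over Gpx4 averaged 0.73 in K68R and 0.66 in WT on the log2 scale, a difference of 0.08 that became 0.85 with offsets. Each of the 3 ratios had an exact permutation p of 0.1, also after adjustment, with no overlap between genotypes.

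Of 14 tested genes for glutathione synthesis, cystine supply and turnover, 4 were called higher and 7 lower, with a median log2 fold change of -0.08 (-0.01 over all genes, of which 40.8% were called higher and 40.5% lower). With offsets 4 were higher and 6 lower, against 35.5% and 40% of all genes. Levels of list genes are means ± SD of 3 libraries per genotype, and p-values are adjusted over all genes tested. Gclm, the modifier subunit of the rate-limiting glutamate-cysteine ligase, had 50.8 ± 0.748 CPM in K68R libraries and 70.8 ± 1.31 CPM in WT (log2 fold change -0.48, edgeR adjusted p = 4.06e-20). With offsets it was at -0.01 and was not called (edgeR adjusted p = 0.744). Gclc, for the other subunit of that ligase, was higher (log2 fold change 0.32, edgeR adjusted p = 3.23e-14), and at 0.47 with offsets. Slc7a11, the cystine importer, was higher at 21.7 ± 0.257 CPM in K68R libraries and 14.2 ± 0.424 CPM in WT (log2 fold change 0.62, edgeR adjusted p = 2.80e-14). It was at 0.71 with length and GC offsets and at -0.18 with offsets for length alone. Slc3a2, for the partner chain of that importer, was lower (log2 fold change -0.12, edgeR adjusted p = 1.79e-06), and at -1.56 with length and GC offsets. Oplah, which recycles oxoproline to glutamate, had 6.69 ± 0.156 CPM in K68R libraries and 1.84 ± 0.489 CPM in WT (log2 fold change 1.88, edgeR adjusted p = 1.27e-19). With offsets it was at -0.14 and was not called (edgeR adjusted p = 0.399).

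Selenocysteine is inserted at the TGA codons of Gpx1, Gpx4 and Gpx3. All 10 genes listed under its synthesis and insertion were called, 4 higher and 6 lower, with a median of -0.26. Of all genes, 40.8% were called higher and 40.5% lower (81.4% in all). The list is a broad grouping, and not every gene in it makes or inserts selenocysteine. Trit1, which was at the threshold (edgeR adjusted p = 0.0484), was named after its value was seen, and the count called higher was 3 with DESeq2, with no filter, with the replicate block and with several libraries left out in turn. With offsets 2 of 9 were higher and 5 lower, against 35.5% and 40% of all genes. Sephs1, a selenophosphate synthetase paralog, had 54.1 ± 2.15 CPM in K68R libraries and 92.1 ± 1.53 CPM in WT (log2 fold change -0.77, edgeR adjusted p = 5.18e-32), and -0.68 with offsets. Sars1, the seryl-tRNA synthetase that charges the selenocysteine tRNA with serine, had 264 ± 5.75 CPM in K68R libraries and 325 ± 0.775 CPM in WT (log2 fold change -0.30, edgeR adjusted p = 7.11e-21), and had no GC value for the offsets. Secisbp2l, a paralog of the protein that binds the selenocysteine insertion element, was higher, at 107 ± 3.80 CPM in K68R libraries and 82.9 ± 0.888 CPM in WT. Its log2 fold change was 0.37 (edgeR adjusted p = 2.95e-18), 0.38 with length and GC offsets and -0.28 with offsets for length alone.

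Of 18 other selenoprotein genes tested, 7 were called higher and 10 lower (median -0.16), against 40.8% and 40.5% of all genes. With offsets 13 were higher and 3 lower (median 0.28), against 35.5% and 40% of all genes. The balance of this list therefore turned with the offsets. The extremes kept their direction under every alternative. Selenon, a selenoprotein of the endoplasmic reticulum, was at 138 ± 1.58 CPM in K68R libraries and 33.5 ± 2.68 CPM in WT (log2 fold change 2.04, edgeR adjusted p = 2.09e-51; 1.04 with offsets). Selenoh, a nuclear selenoprotein, was at 22.9 ± 0.833 CPM in K68R libraries and 59.2 ± 1.17 CPM in WT (-1.38, edgeR adjusted p = 2.38e-40; -0.80 with offsets). Dio3, the deiodinase that inactivates thyroid hormone, was at 0.680 ± 0.173 CPM in K68R libraries and 4.62 ± 0.475 CPM in WT (-2.75, edgeR adjusted p = 2.78e-21; -2.98 with offsets). The abundant Selenof was at 441 ± 4.98 CPM in K68R libraries and 588 ± 4.57 CPM in WT (-0.41, edgeR adjusted p = 5.23e-31), and at 0.17 with offsets.

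Around Gpx7 and Gpx8, 14 genes of oxidative folding in the endoplasmic reticulum gave 3 called higher and 10 lower (median -0.23), against 40.8% and 40.5% of all genes. With offsets the counts were 4 and 6, near the 35.5% and 40% of all genes. Prdx4, the peroxiredoxin of that compartment, fell most, with 51.8 ± 1.72 CPM in K68R libraries and 120.4 ± 4.21 CPM in WT (log2 fold change -1.22, edgeR adjusted p = 2.53e-44; -0.94 with offsets). Pdia5, a protein disulfide isomerase, had 61.4 ± 1.70 CPM in K68R libraries and 119 ± 0.820 CPM in WT (-0.95, edgeR adjusted p = 1.32e-39; -0.66 with offsets). Qsox1, a sulfhydryl oxidase that forms disulfides and releases hydrogen peroxide, rose to 312 ± 3.40 CPM in K68R, against 159.7 ± 1.42 CPM in WT (0.97, edgeR adjusted p = 6.89e-49; 0.34 with offsets).

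Among 10 tested genes of lipid peroxidation and ferroptosis, the setting in which Gpx4 acts, 3 were called higher and 6 lower (median -0.42), against 40.8% and 40.5% of all genes. With offsets 3 were higher and 7 lower, against 35.5% and 40%. Tfrc, the transferrin receptor that brings in iron, had 193 ± 3.23 CPM in K68R libraries and 339 ± 10.4 CPM in WT (log2 fold change -0.82, edgeR adjusted p = 1.45e-43; -0.48 with offsets). Acsl4, which loads membranes with oxidizable fatty acids, had 94.3 ± 1.76 CPM in K68R libraries and 133 ± 4.35 CPM in WT (-0.50, edgeR adjusted p = 8.16e-26; -0.19 with offsets). The lipoxygenases Alox5 and Alox15 rose, at low levels in both genotypes. Alox5 was at 5.80 ± 0.815 CPM in K68R libraries and 1.49 ± 0.370 CPM in WT (1.94, edgeR adjusted p = 4.42e-18; 1.67 with offsets). Alox15 was at 1.47 ± 0.108 CPM in K68R libraries and 0.300 ± 0.119 CPM in WT (2.24, edgeR adjusted p = 1.03e-09; 0.76 with offsets).

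The other enzymes that remove hydrogen peroxide, catalase and the peroxiredoxins, were called lower in 7 of 7 cases, with a median of -0.31, where 40.5% of all genes were lower. With offsets 4 were lower and 3 higher, near the split of all genes (40% lower and 35.5% higher). Besides Prdx4, the lowest log2 fold changes were those of Prdx3 and Prdx5, peroxiredoxins found in mitochondria. Prdx3 had 75.6 ± 2.58 CPM in K68R libraries and 118 ± 1.63 CPM in WT (log2 fold change -0.64, edgeR adjusted p = 3.13e-30), and Prdx5 had 119 ± 2.82 CPM in K68R libraries and 174.5 ± 0.726 CPM in WT (-0.56, edgeR adjusted p = 3.35e-31). With offsets these were -0.12 and -0.25.

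**Figure D5:**
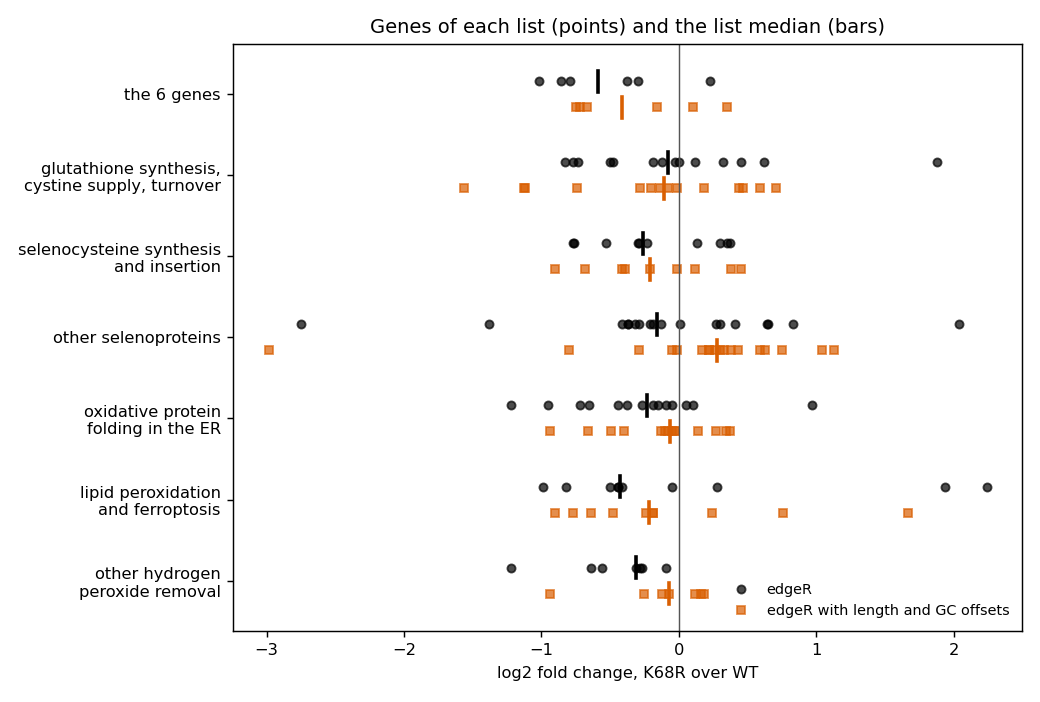
Log2 fold change, K68R over WT (x axis), of every tested gene of each list (rows), from edgeR (black circles) and from edgeR with length and GC offsets (orange squares); vertical bars are list medians. The median of the 6 genes is -0.59 and -0.41 with offsets, and the list of other selenoproteins has -0.16 and 0.28.

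The genes whose libraries lay nearest to each of the 6 were found by Euclidean distance over log2 CPM of the 6 libraries, centred on the WT mean, among 10906 others at 5 CPM or more. Nearest to Gpx7 were Nudt21 (distance 0.0906) and Haus4 (0.0914), and nearest to Gsr were Ezh2 (0.0474) and Gstm2 (0.0480). Gpx8 had Tuba1c (0.0181) and Ppia (0.0237), and Gpx4 had Hsp90aa1 (0.0157) and Paip2b (0.0287). Gpx1 had Nras (0.0288) and Ppip5k2 (0.0321), and Gpx3 had Zfp664 (0.0159) and Asph (0.0279). Gpx7 and Gsr thus had no neighbour as close as those of the other 4. Of all genes tested, 7.36% and 10.5% had a lower log2 fold change than Gpx7 and Gsr, and 12.8% than Gpx8. Whether the scarcity of such changes set the distances was not tested.

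Summed markers of every cell type listed differed between genotypes without overlap, some higher and some lower in K68R. Of all genes tested, 40.8% were called higher and 40.5% lower. Marker values are without length and GC offsets. The 12 fibroblast markers summed to 11386 to 11514 CPM in K68R and to 9263 to 9415 CPM in WT, with 4 called higher and 7 lower, the highest sum of any marker list in both genotypes. Skeletal muscle markers summed to 237 to 239 CPM in K68R and 73.8 to 77.9 CPM in WT (7 of 7 tested called higher, Ckm at 3 counts or fewer in every library). Cartilage markers summed to 158 to 165 CPM in K68R and 10.3 to 11.2 CPM in WT (3 of 4 higher, Matn1 at 3 counts or fewer), and endothelial markers to 96.1 to 97.9 CPM in K68R and 24.7 to 27.2 CPM in WT (2 of 5 higher). Adipocyte markers ran the other way, at 70.0 to 74.4 CPM in K68R and 242 to 255 CPM in WT (7 of 8 lower), as did epithelial markers, at 18.4 to 20.5 CPM in K68R and 46.0 to 47.6 CPM in WT (6 of 6 lower). Macrophage markers were at 154.5 to 159 CPM in K68R and 164 to 165 CPM in WT (3 higher and 3 lower of 10). Erythroid markers, with Hbb-y at 0, summed to 0.288 to 0.486 CPM in K68R and 0.655 to 0.927 CPM in WT, and hepatic markers to 0.116 to 0.130 CPM in K68R and 0.849 to 1.52 CPM in WT. Their part in the values of the 6 genes was not tested.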

How the data were processed

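The 3 K68R and 3 WT libraries were made from RNA with an integrity number above 4 by a stranded kit, per the labels' protocols. The submitters' processing notes name featureCounts 2.0.6, HISAT2 2.2.1, bcl2fastq and SAMtools, and build mm39. The values deposited by the authors are raw read pair counts, summed for each gene over exons of the NCBI RefSeq annotation, counted without strand and without multi-mapped reads, per the file headers. The same deposited table gives exonic lengths in bases, used here for CPM per kilobase.

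Counts were fitted in R 4.3.3 with edgeR 4.0.16 (filterByExpr, TMM, robust quasi-likelihood F test) and Benjamini-Hochberg adjustment over 16730 genes; a call is an adjusted p under 0.05, and SE is the standard error of the log2 fold change. For the offsets, mgcv 1.9.3 gave each library a smooth surface over GC content and log2 exon length, re-centred and entered into the edgeR model. GC content came from the longest GENCODE M21 transcript of GRCm38 matched by symbol, which 93.2% of the genes tested had. For shares and ratios, a two-sided exact permutation test enumerated all 20 assignments of libraries to genotypes. Within a genotype, libraries differed from each other by a chi-square per gene of 1.85 to 2.29, above sampling noise, so all 6 were kept. A floor is 3 counts in a library, and floors cover counting error only. The fit was tested on simulated data.

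The genes named in each list were the called ones with the 3 smallest p-values, and any called one changed at least 2-fold; beside each of the 6 genes the 2 nearest in pattern were named. Gclc, Slc3a2 and Trit1 were named outside this rule, after their values were seen. The 6 genes, the lists, the tests and most alternatives were chosen with earlier results of these data known. The sum of Gpx4 and Gpx4-ps2 counts, and the block combined with offsets, were added after seeing the data. Protein sequences were not used here.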

Additional observations from a re-analysis of the deposited data

How the results depend on the processing

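Alternatives were no filter, a filter of 1 CPM in 3 libraries, upper quartile normalization, DESeq2 size factors, limma-voom 3.58.1, DESeq2 1.42.0, a replicate block, a 1.5-fold bound, length and GC offsets, length only offsets, genes under 4000 bases and under 50% GC only (which tests Gpx8 alone of the 6), and leaving out each library. The median of all genes moved to -0.12 (upper quartile), 0.15 (no filter) and -0.16 (length only). Against the 1.5-fold bound 6855 genes were called, and among short genes of low GC 2699.

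Of the 6 genes, 3 were called lower with the bound and 1 among short low-GC genes, and 0 higher with either of these or upper quartile, but 2 higher with both kinds of offsets and with the replicate block and offsets. Gpx1 reversed to 0.10, 0.09 and 0.10 in these fits, and Gpx4-ps2 to 0.08, 0.06 and 0.08. Oplah reversed to -0.14 with length and GC offsets, with and without the block, and Selenof to 0.17, and to 0.01 among short low-GC genes. Secisbp2l and Slc7a11 reversed to -0.28 and -0.18 with length only offsets. The shares of Gpx4 and Gpx8 reversed to -10.6 and 2.42 points with offsets. Gpx1, Gpx3 and Gpx4 were not called against the bound (edgeR adjusted p = 1 each).

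List counts are given here as lower and higher. With the bound, glutathione supply had 3 and 1, selenocysteine synthesis 2 and 0, and other selenoproteins 2 and 3. Oxidative folding had 2 and 1, lipid peroxidation 2 and 2, and other peroxide removal 2 and 0. Of all genes tested, 14.9% passed the bound in the lower direction and 26.1% in the higher. With length and GC offsets, with or without the block, they were 6 and 4 for glutathione supply and 5 and 2 for selenocysteine synthesis. Other selenoproteins had 3 and 13, folding 6 and 4, lipid peroxidation 7 and 3, and other peroxide removal 4 and 3. Of all genes, 40% were called lower and 35.5% higher with these offsets and no block. With length only offsets, glutathione supply had 7 and 2, selenocysteine synthesis 7 and 2, and other selenoproteins 6 and 8. Folding had 12 and 1, which upper quartile also gave, lipid peroxidation 8 and 2, and other peroxide removal 5 and 0. With upper quartile, 7582 of all genes were called lower and 6147 higher. Of all genes, 47% were called lower and 33.3% higher with length only offsets. Among short low-GC genes, where fewer are tested, 1372 of all genes were called lower and 1327 higher. There glutathione supply had 2 and 4, selenocysteine synthesis 1 and 1, and other selenoproteins 0 and 4. Folding had 1 and 3, lipid peroxidation 1 and 1, and other peroxide removal 2 and 3. Why these counts moved from those of the reported test was not tested beyond the construction of each fit.

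Leaving out each library gave log2 fold changes of -0.34 to -0.30 (Gpx1), 0.20 to 0.24 (Gpx3), -0.42 to -0.37 (Gpx4), -1.06 to -0.98 (Gpx7), -0.82 to -0.78 (Gpx8) and -0.90 to -0.85 (Gsr), with 5 genes lower and 1 higher each time and 13403 to 13637 genes called. The replicate block left the values of the 6 at -0.30, 0.23, -0.38, -1.02, -0.79 and -0.86, with 13567 genes called, and 3 in place of 4 selenocysteine synthesis genes called higher. Libraries were also compared by their deviations from the genotype mean, over genes with a mean log2 CPM above 5. On these deviations the same-numbered libraries correlated at 0.067, -0.002 and 0.134. K68R replicates 1 and 3 correlated best with the WT library of the same number, but K68R replicate 2 with WT replicate 1 (0.07). The numbers were not taken as pairs.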
